A study of Mus musculus with 31 samples.

Results

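The genes described here encode the protein subunits of the oxidative phosphorylation system of the mouse. They were chosen by name from the gene table of primary microglia: symbols that start with mt-Nd, mt-Co, mt-Atp, mt-Cytb, Ndufa, Ndufb, Ndufc, Ndufs, Ndufv, Uqcr, Cox4i, Cox5, Cox6, Cox7, Cox8 or Atp5, together with Sdha, Sdhb, Sdhc and Sdhd, without assembly factors and without names that mark pseudogenes or opposite-strand transcripts. The rule found 103 of the 54532 genes of the microglial table, 13 of them encoded by mitochondrial DNA and 90 by nuclear chromosomes. The nuclear genes comprised 41 of complex I, 4 of complex II, 8 of complex III, 19 of complex IV and 18 of complex V. The same gene identifiers gave 102 of the 48795 genes of the hippocampal table, because one of the 2 identifiers named Atp5o is not in it. Of the 103 genes, 99 are annotated as protein coding and 4 (Ndufa11b, Ndufb4c, Ndufs6b and Cox6c2) as processed pseudogenes.

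Oxidative phosphorylation runs on the inner mitochondrial membrane, where complexes I and II pass electrons from NADH and succinate to ubiquinone, complex III passes them on to cytochrome c, and complex IV hands them to oxygen. Complexes I, III and IV pump protons, and complex V, the ATP synthase, uses the returning protons to make ATP. Every complex but complex II is built from subunits of both genomes, so their production needs transcription in the nucleus and in the mitochondrion. Neurons depend heavily on this pathway, whereas macrophages and microglia that respond to inflammatory signals are known to shift part of their energy supply to glycolysis. Mitochondrial DNA is in addition a known ligand of cGAS, the cytosolic DNA sensor that is deleted in part of these cultures and that starts the type I interferon response.

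Hippocampi came from 7 non-transgenic mice (Ntg, of which 3 were female) and 6 P301S mice (of which 3 were female), which carry a transgene for human tau with the P301S mutation, all of them 8 to 9 months old and with 1 library per mouse. In this line the mouse prion promoter drives the transgene. The Cgas genotype of these mice is not stated. Primary microglia were grown from the cortices of newborn mice in mixed glial cultures to which GM-CSF was added, and were then given vehicle, fibrils of tau, or HT-DNA (DNA from herring testis, which as double-stranded DNA activates cGAS). Wild-type cells (Cgas+/+) and cells labelled Cgas KO (Cgas-/-) received each treatment, which gave 6 groups of 3 libraries. The study's methods give a single concentration of each stimulus and a single time of RNA isolation, hours after stimulation. Other times were not measured here. The study calls the samples behind these microglial counts biologically independent. Whether the 3 libraries of a group came from separate animals or from separate cultures is given neither there nor in the labels, and the p-values for microglia measure the spread between these libraries. The 4 comparisons with vehicle and the comparison of genotypes share vehicle libraries.

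Counts per library summed to between 25953296 and 35779977 in hippocampi and between 17037459 and 25174764 in microglia. Values are given as normalised CPM, that is, counts relative to a library size scaled by the TMM method (CPM), and a gene is said to be called when its adjusted p in edgeR's quasi-likelihood test was under 0.05. Cgas, listed under its older symbol Mb21d1, had 23.1 ± 4.20 normalised CPM in Cgas+/+ cells with vehicle and 4.92 ± 0.75 in Cgas-/- cells (SD, n = 3 each), and which part of the gene is deleted is not given in the sources used here. Mapt, the tau gene, had 571 ± 46.9 in Ntg (n = 7) and 996 ± 88.5 in P301S hippocampi (n = 6). In the microglial libraries the 15 neuronal markers summed to 2.17 to 5.85 and the 11 astrocyte markers to 5.61 to 16.97 normalised CPM. The 17 microglial markers summed to 8212 to 12382. The 11 oligodendrocyte markers were not near 0 as a sum, at 567.8 to 725.1 normalised CPM in these libraries. The 9 fibroblast and endothelial markers summed to 27.7 to 391.3. Which cells gave these last 2 sums was not tested. The microglial marker Siglech was at 0 in every library of both vehicle groups. In hippocampi, none of the neuronal, astrocyte, oligodendrocyte or microglial markers was at 0 in every library of a group.

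The sequences below show why 5 of the 13 mitochondrially encoded genes must be read apart from the others. Nuclear copies cover nearly all of their length. The mouse genome holds a nuclear copy of part of the mitochondrial DNA on chromosome 1, annotated in GRCm38 as a run of pseudogenes on the minus strand. A read from such a stretch fits both places, and which one it is counted on depends on the alignment settings. For mt-Co2 (cytochrome c oxidase subunit II, chrM:7013-7696) the copy Gm28661 (chr1:24614885-24615565) had 0 mismatches over 681 bases, and the first 60 bases of each, as their RNA reads 5′ to 3′, are identical. For mt-Nd3 (a membrane subunit of complex I, chrM:9459-9806) the copy Gm28438 (chr1:24612775-24613119) had 1 mismatch over 345 bases, T3C counted from the first base of the transcript, which is in capitals here.
mt-Co2: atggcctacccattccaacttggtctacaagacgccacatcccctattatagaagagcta
Gm28661: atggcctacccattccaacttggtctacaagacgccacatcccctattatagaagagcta
mt-Nd3: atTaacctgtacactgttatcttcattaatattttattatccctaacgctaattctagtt
Gm28438: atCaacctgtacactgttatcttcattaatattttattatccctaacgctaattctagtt
The copies of mt-Atp6 (Gm10925, 678 bases), mt-Co3 (Gm28437, 783 bases) and mt-Nd4l (Gm10222, 294 bases) also had 0 mismatches. Copies of mt-Nd4 (Gm28439, 876 bases with 0 mismatches) and mt-Co1 (Gm29216, 492 bases with 6 mismatches) cover 63.6% and 31.8% of those genes. Those 6 mismatches lie close together, from T1056A to A1066T of mt-Co1, and the other aligned bases are identical.

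The 2 tables divided these reads differently. In hippocampi a median of 99.5% of the reads of the mt-Co2 pair (range over mice, 98.9% to 99.6%) were counted on the nuclear copy, and in microglia 52.4% (46.3% to 54.7%). The medians for mt-Atp6 were 99.3% and 58.5%, for mt-Co3 99.3% and 48.7%, for mt-Nd4l 99.5% and 48.8%, and for mt-Nd3 91.4% and 12.3%. By contrast the copies of mt-Nd4 and mt-Co1 took between 0.265% and 1.09% at the median in either table. Reads left out of the counts because they fit both places would not show in these shares. How such reads were treated is not given, so the levels of mt-Nd4 and mt-Co1 may be understated. Values of mt-Co2, mt-Co3, mt-Atp6, mt-Nd3 and mt-Nd4l are therefore uncertain, and their levels were not compared between the 2 tables. mt-Atp8 (chrM:7766-7969) was not compared with a copy. It lies between mt-Co2 and mt-Atp6, which both have copies on chromosome 1, so it may share reads in the same way. Its counts were low, 0 to 8 per library in hippocampi and 9 to 16 in microglia, and its values are uncertain as well. The cause of the difference between the tables was not tested.

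Among the 7 abundant mitochondrially encoded genes, mt-Co1, the catalytic subunit of complex IV, was the highest in both experiments. Per kilobase of exon it had a mean of 9063 normalised CPM in Ntg hippocampi, followed by mt-Cytb (cytochrome b of complex III) at 6756, mt-Nd1 at 6044, mt-Nd2 at 3980, mt-Nd4 at 2555 and mt-Nd5 at 2437. These 5 encode membrane subunits of complexes III and I. The nuclear gene with the highest level per kilobase in Ntg hippocampi was Cox8a, a small subunit of complex IV, at 404. In Cgas+/+ microglia with vehicle the levels per kilobase were 6484 for mt-Co1, 1300 for mt-Nd1, 1300 for mt-Cytb, 1217 for mt-Nd5, 971 for mt-Nd6, 667 for mt-Nd2 and 641 for mt-Nd4, and the highest nuclear gene was Cox6a1 at 238. mt-Nd6, the one member on the opposite strand of mitochondrial DNA (chrM:13552-14070), had 68.6 per kilobase in Ntg hippocampi. It shares 14 bases with mt-Nd5 (chrM:11742-13565), and whether counting used the strand is not given in the sources used here. If reads came only from 3′ ends, as the kit named in the labels would give, levels per kilobase understate long genes.

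**Figure D1:**
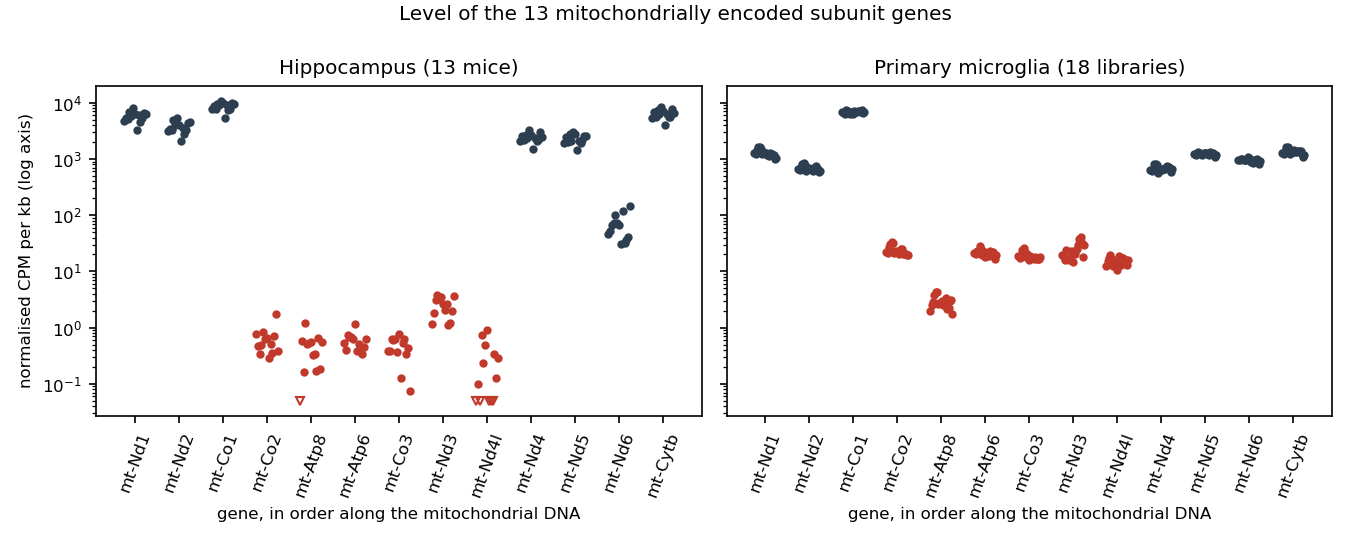
Levels of the 13 mitochondrially encoded genes in 13 hippocampi (left) and 18 microglial libraries (right), as normalised CPM per kilobase of exon on a log axis, with 1 point per library, the 6 genes with reads shared with nuclear copies or low counts in red, and open triangles for libraries with 0 counts. In both experiments mt-Co1 is the highest gene, and the 6 genes in red lie far below the other 7.

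In the hippocampus none of the members was called in either direction, while over all 16453 genes tested 1.39% were called higher in P301S mice and 0.122% lower. Of the 102 members, 97 passed the filter on low counts, 11 mitochondrially encoded (without mt-Nd4l and mt-Atp8) and 86 nuclear. At an unadjusted p under 0.05 the numbers were 1 mitochondrially encoded and 0 nuclear genes by edgeR, and DESeq2 also called 0. mt-Co1 had a lowest, median and highest value of 11726, 14028 and 16614 normalised CPM in the 7 Ntg mice and of 8357, 13088 and 15361 in the 6 P301S mice. The 2 ranges overlapped, and the log2 fold change was -0.14 (SE 0.14, edgeR adjusted p = 0.703). For mt-Nd1, a core subunit of complex I, the values were 4447, 5522 and 7722 in Ntg and 3073, 5377 and 6169 in P301S mice (log2 fold change -0.19, SE 0.17, adjusted p = 0.654, 95% interval -0.54 to 0.17). mt-Cytb differed by -0.18 (adjusted p = 0.606), mt-Nd2 by -0.21 (0.644), mt-Nd4 by -0.18 (0.597) and mt-Nd5 by -0.19 (0.606), each with overlapping groups.

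mt-Nd6 varied most among the abundant members, with 24.2, 35.2 and 52.8 normalised CPM in Ntg and 15.9, 20.2 and 76.6 in P301S mice as lowest, median and highest, and its log2 fold change of -0.02 changed sign with the scaling and with single mice. The one mitochondrially encoded gene with an unadjusted p under 0.05 was mt-Atp6 (-0.58, SE 0.26, adjusted p = 0.288). It had 0.469 ± 0.163 normalised CPM in Ntg and 0.308 ± 0.0703 in P301S mice, at counts of 7 to 21 per library, and is one of the genes whose reads went mostly to the nuclear copy. All 13 genes together took 3.18% to 4.82% of the counts in Ntg mice (median 3.74%) and 2.43% to 4.47% in P301S mice (median 3.63%).

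The nuclear members of the hippocampus lay on both sides of 0, 52 above and 34 below, with a median log2 fold change of 0.01 against 0.001 over all genes. Atp5b and Atp5a1, the catalytic and the partner subunit of the ATP synthase head, had 1178 ± 67.8 and 931 ± 26.1 normalised CPM in Ntg mice (SD, n = 7) and 1182 ± 71.4 and 924 ± 32.8 in P301S mice (n = 6). Sdha, the flavoprotein of complex II, ranged from 441 to 486 and from 433 to 480, and Cox4i1, a regulatory subunit of complex IV, had 434 ± 76.2 and 429 ± 61.8. These levels differed by less than the spread between mice. The farthest fold change of a nuclear member on the upper side was that of Cox6a2, a subunit isoform of heart and skeletal muscle (0.83, SE 0.43, adjusted p = 0.37), which ranged from 1.28 to 5.46 normalised CPM in Ntg and from 1.09 to 10.9 in P301S mice. In the same mice 6 of the 17 microglial markers were called higher in P301S hippocampi (sum 551 to 1923 normalised CPM against 543 to 675) and 1 of 11 astrocyte markers (5220 to 8966 against 4916 to 5730), while the 15 neuronal markers summed to 14184 to 17946 against 16107 to 20641 with none called. Their part in the members' values was not tested beyond a fit with the neuronal markers as a covariate, which also called none of the members, and in whole tissue fewer cells of a type cannot be told apart from less RNA per cell.

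The sexes differed in the side on which the nuclear members lay, without any call. In females 80 of the 86 nuclear members were above 0 in P301S against Ntg mice (median log2 fold change 0.24), and in males 5 of 86 (median -0.19), with 0 called in either sex and medians over all genes of 0.004 and 0.010. Counts on all nuclear members together made up 0.900% to 1.05% of the library in the 3 Ntg females and 1.14% to 1.20% in the 3 P301S females, which did not overlap. In males they made up 0.971% to 1.25% in the 4 Ntg and 0.930% to 1.08% in the 3 P301S mice. The interaction of sex with genotype had an unadjusted p under 0.05 for 59 of the 97 members tested (60.8%) and for 3897 of all 16453 genes (23.7%), and no gene was called. The lowest adjusted p among the members was 0.104, for mt-Co3. Cytosolic ribosomal protein genes moved the same way, with sums of 9095 to 10111 in Ntg and 11473 to 12748 normalised CPM in P301S females, and of 9839 to 12212 and 8913 to 11273 in males. Markers of some cell types separated in females too. The neuronal markers summed to 17422 to 20641 in Ntg and 15405 to 17254 in P301S females, and the oligodendrocyte markers to 4483 to 5071 and 5118 to 7105. In males both overlapped, at 16107 to 18977 and 14184 to 17946 for neurons and 4084 to 7929 and 6544 to 9391 for oligodendrocytes. The microglial markers had higher medians in P301S mice of both sexes, 1736 against 587 in females and 1037 against 610 in males. Their ranges separated in males only, at 543 to 622 in Ntg and 640 to 1858 in P301S mice. In females they overlapped, at 552 to 675 and 551 to 1923. Astrocyte markers overlapped in both sexes. The part of these groups in the difference between the sexes was not tested. Of the 11 mitochondrially encoded genes tested, 3 were above 0 in females (median -0.09) and 0 in males (median -0.30), with 0 called in either sex.

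**Figure D2:**
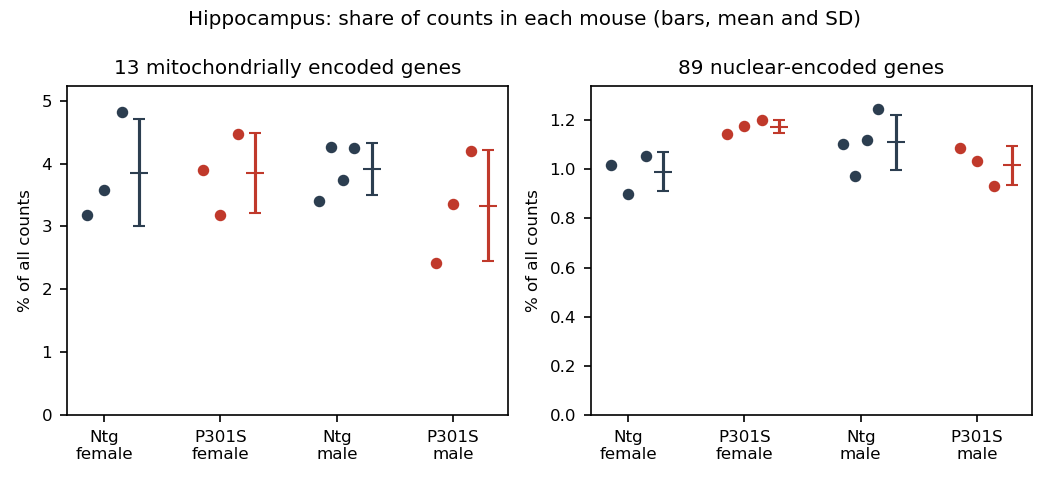
Share of all counts in each hippocampal library that fell on the 13 mitochondrially encoded genes (left) and on the nuclear members (right), in percent, by genotype and sex with 1 point per mouse. For the nuclear members the 3 P301S females (1.14% to 1.20%) lie above the 3 Ntg females (0.900% to 1.05%), and the male groups overlap.

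In microglia the larger differences were between genotypes. Cgas-/- and Cgas+/+ cells came from different mice, and whether they were cultured side by side is not given in the sources used here. Genotype can therefore not be told apart from litter or culture. The vehicle libraries carry different names in the labels, Ctrl in Cgas+/+ and NT in Cgas-/- cells. With vehicle, 39 of the 80 nuclear members tested were called higher in Cgas-/- than in Cgas+/+ cells and 4 lower, against 24.7% and 27.3% of all 13675 genes tested. The groups did not overlap for 36 of the 80, a smaller share than the 58.6% over all genes. The median log2 fold change was 0.14 over the nuclear members, 70 of which were above 0. Counts on the nuclear members made up 0.601% to 0.644% of the Cgas+/+ and 0.677% to 0.706% of the Cgas-/- libraries. The 13 mitochondrially encoded genes had 1 call in each direction and a median of 0.01. They took 1.76% to 1.78% of the counts in Cgas+/+ and 1.83% to 1.92% in Cgas-/- libraries.

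Complex I had 19 of 37 tested genes higher and 2 lower. Ndufs4, an accessory subunit needed for the assembly of the NADH-oxidising arm, had 26.7, 24.8 and 25.1 normalised CPM in the 3 Cgas+/+ and 40.9, 40.6 and 38.4 in the 3 Cgas-/- libraries. The groups were well separated, with a log2 fold change of 0.64 (SE 0.07, edgeR adjusted p = 1.53e-08). Ndufs8, a core iron-sulfur subunit, rose from 30.6, 26.2 and 31.1 to 40.6, 38.7 and 41.0 (0.46, SE 0.06, adjusted p = 5.09e-07), and Ndufc2, a small accessory subunit, from 31.7, 28.7 and 33.2 to 49.6, 43.2 and 40.8 (0.51, SE 0.08, adjusted p = 9.37e-06). The core subunits Ndufs1 and Ndufv1 and the acyl carrier protein Ndufab1 rose by less, with log2 fold changes of 0.21, 0.14 and 0.23, and Ndufv1 was no longer called without Cgas+/+ vehicle replicate 3 (adjusted p = 0.083) or Cgas-/- vehicle replicate 2 (0.0707). Against this direction, Ndufa9, an accessory subunit, fell from 70.3, 65.2 and 62.4 to 55.7, 58.7 and 55.7 (-0.22, SE 0.06, adjusted p = 0.00154). Ndufa4, which is named for complex I and is now counted as a subunit of complex IV, had overlapping groups and a log2 fold change of 0.02 (adjusted p = 0.816).

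In complex II, Sdhd, one of the membrane anchors, rose from 85.0, 78.8 and 84.6 to 102.5, 101.3 and 111 (0.34, SE 0.05, adjusted p = 2.21e-06). The other subunits of the complex were not called: Sdha had -0.09 (adjusted p = 0.071), Sdhb -0.09 (0.132) and Sdhc 0.05 (0.43). Complex III had the highest median, 0.33, with 6 of its 8 genes called higher and none lower. Uqcrb, a small subunit next to cytochrome b, had 45.1, 42.5 and 52.8 in Cgas+/+ and 79.2, 69.1 and 57.3 in Cgas-/- cells (0.55, SE 0.10, adjusted p = 4.5e-05). The other 5, named here after their values were seen, were Uqcr10 (0.43), Uqcr11 (0.42), Uqcrq (0.41), Uqcrc2 (0.26) and Uqcrh (0.25), whereas the iron-sulfur protein Uqcrfs1 was not called (0.11, adjusted p = 0.136). Of the 17 tested genes of complex V 7 were higher and none lower. Atp5b, the catalytic subunit, rose by 0.10 on the log2 scale (adjusted p = 0.012), from 605, 591 and 599 to 648, 643 and 637, and Atp5a1 was not called (0.05, adjusted p = 0.248).

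Complex IV held the members that changed most, in opposite directions. Cox6a2, Cox7a1 and Cox8b, on chromosome 7, are isoforms known from heart and skeletal muscle. Cox6a2 (chr7:128205435-128206387) had 6.51, 7.26 and 4.05 normalised CPM in Cgas+/+ cells with vehicle and 19.6, 19.1 and 19.6 in Cgas-/- cells, a log2 fold change of 1.69 (SE 0.13, adjusted p = 2.05e-11). It was as high in Cgas-/- cells with tau (21.4, 20.1 and 21.2) and with HT-DNA (20.6, 21.3 and 21.0), so that all 9 Cgas-/- libraries lay above all 9 Cgas+/+ libraries. The whole span of Cox6a2 lies within Itgad on the opposite strand, and without stated strand the reads of the pair cannot be told apart. The counts over all 18 libraries were 5096 on Cox6a2 and 57 on Itgad. Cox7a1 (chr7:30184144-30186078) fell from 1.638, 1.989 and 1.996 to 0.892, 0.469 and 0.835 (-1.34, SE 0.33, adjusted p = 0.00112), a ratio of summed counts of 0.393 with an exact 95% interval of 0.272 to 0.560. Cox8b (chr7:140898945-140900446) had counts of 24, 32 and 13 against 5, 0 and 4, a ratio of 0.140 (0.0614 to 0.281, adjusted p = 0.000158). These intervals cover counting error only. The isoforms of other tissues moved less. Cox8a, the partner of Cox8b outside muscle, had 0.36, Cox7a2, the partner of Cox7a1, had 0.24, and both (named after their values were seen) were called higher, whereas Cox4i1 had 0.04 (0.348), Cox5a 0.01 and Cox5b 0.10 (0.254). Cox4i2, an isoform tied to low oxygen, was under the filter in microglia, at 0.0440 to 0.376 normalised CPM.

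**Figure D3:**
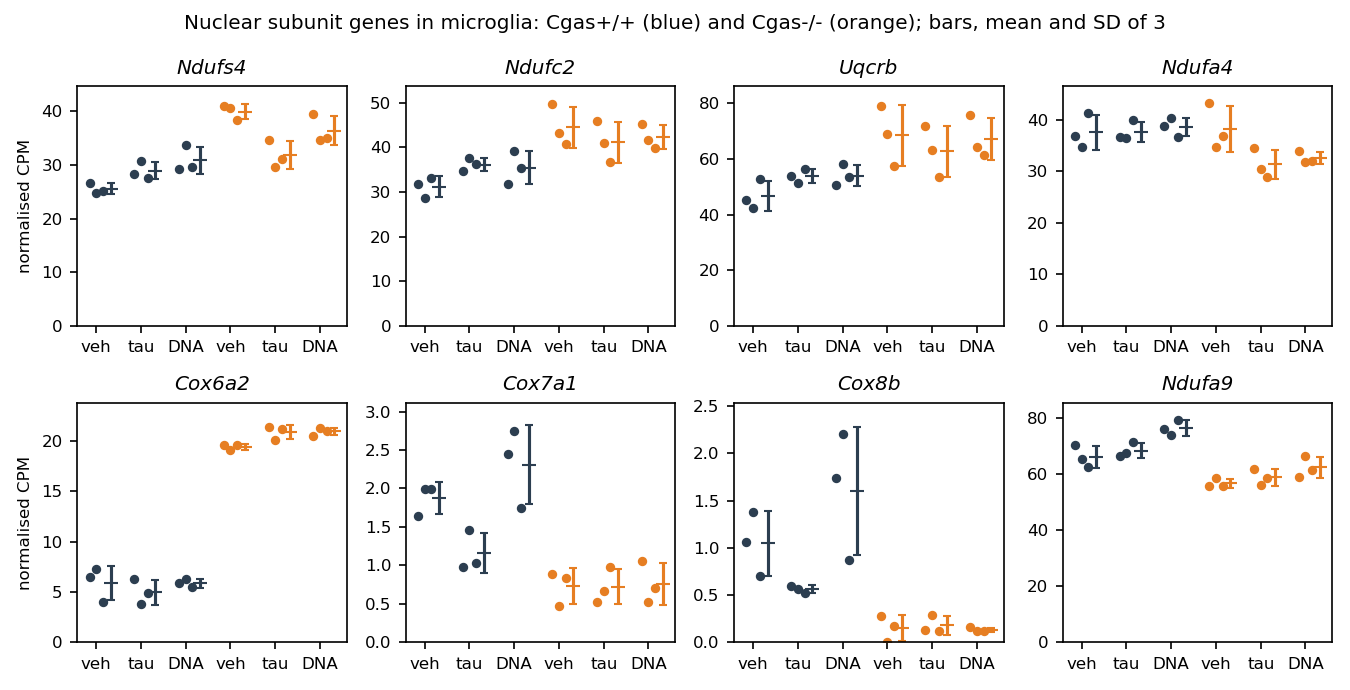
Normalised CPM of 8 nuclear members in the 18 microglial libraries, with 1 point per library and the mean with SD of the 3 libraries of each of the 6 groups, on linear axes that start at 0. Ndufs4, Ndufc2, Uqcrb and Cox6a2 are higher and Cox7a1, Cox8b and Ndufa9 lower in Cgas-/- than in Cgas+/+ cells with vehicle.

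Of the mitochondrially encoded genes, mt-Co1 was called higher in Cgas-/- cells, with 10906, 10466 and 10681 against 10373, 9961 and 9721 normalised CPM (0.09, SE 0.04, adjusted p = 0.0415). mt-Nd6 was called lower, with 472, 456 and 446 against 491, 503 and 518 (-0.14, SE 0.05, adjusted p = 0.0129). Neither call held without Cgas+/+ vehicle replicate 3 (adjusted p = 0.153 for mt-Co1 and 0.0612 for mt-Nd6) or without Cgas-/- vehicle replicate 3 (0.0714 and 0.0643), and that of mt-Co1 was also lost without Cgas+/+ vehicle replicate 2 (0.0844) or Cgas-/- vehicle replicate 1 (0.127).

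Promoters of 3 members are shown as examples, and not as a picture of all nuclear members. Of the 89 nuclear symbols 69 had a promoter in the RefSeq table (GRCm38.p6), which gives 250 bases before and 50 after the transcription start. Ndufs4 (chr13:114388045-114388344, minus strand) and Uqcr11 (chr10:80406772-80407071, minus strand) were higher in Cgas-/- cells, and Cox8b (chr7:140900397-140900696, minus strand) was lower. Capitals mark the motifs searched on both strands: GCGCATGCG for NRF1, CCGGAAG for ETS factors and AAGATGGCG for YY1.
Ndufs4: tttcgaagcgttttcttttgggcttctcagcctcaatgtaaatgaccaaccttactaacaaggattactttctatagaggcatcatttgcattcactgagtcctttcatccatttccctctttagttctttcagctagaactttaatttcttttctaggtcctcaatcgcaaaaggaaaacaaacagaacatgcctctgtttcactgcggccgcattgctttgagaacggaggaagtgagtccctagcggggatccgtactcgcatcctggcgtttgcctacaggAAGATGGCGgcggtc
Uqcr11: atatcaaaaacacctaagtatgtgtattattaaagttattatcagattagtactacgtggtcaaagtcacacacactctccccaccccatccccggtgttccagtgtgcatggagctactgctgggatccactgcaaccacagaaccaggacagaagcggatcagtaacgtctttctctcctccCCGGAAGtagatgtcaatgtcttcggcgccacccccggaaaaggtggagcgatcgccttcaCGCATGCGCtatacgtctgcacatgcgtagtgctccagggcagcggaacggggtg
Cox8b: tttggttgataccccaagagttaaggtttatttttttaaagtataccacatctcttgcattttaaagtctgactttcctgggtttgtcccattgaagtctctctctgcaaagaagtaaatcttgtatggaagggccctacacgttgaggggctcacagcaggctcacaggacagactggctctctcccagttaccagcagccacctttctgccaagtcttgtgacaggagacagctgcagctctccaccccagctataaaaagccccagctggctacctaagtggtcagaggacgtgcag
The NRF1 letters were in 8 of the 69 promoters (11.6%) and in 1.8% of the 27025 promoters of the table, the ETS letters in 15 (21.7%) and in 9.1%, and the YY1 letters in 6 (8.7%) and in 1.5%. NRF1 and YY1 are known activators of genes for mitochondrial proteins. The window of Uqcr11 held 1 NRF1 and 1 ETS match, that of Ndufs4 held 1 YY1 match, and that of Cox8b held none of the 3 words. Matches did not follow the direction of change in every member. Ndufc2, higher in Cgas-/- cells, had none, and Ndufa9, lower in these cells, had 1 YY1 match. Whether matches go with the direction was not tested. A match is only a match of letters, and no binding was measured here.

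Several other gene groups also had more genes called higher than lower in Cgas-/- cells, beside 24.7% higher and 27.3% lower of all genes tested. The genes for cytosolic ribosomal proteins had 63 higher and 2 lower of 86, those for mitochondrial ribosomal proteins 34 and 2 of 77, for protein import 13 and 1 of 22, for mitochondrial DNA expression 15 and 4 of 28, for assembly factors 18 and 4 of 49, for the TCA cycle 14 and 5 of 24, and for glycolysis 14 and 8 of 29. Tfam, the packaging and transcription factor of mitochondrial DNA, rose by 0.60 on the log2 scale. Cycs and Cyc1, for cytochrome c and cytochrome c1, rose by 0.44 and 0.25. Not every list rose as a sum. A list of electron carriers and other genes summed to 2483 to 2681 normalised CPM in Cgas+/+ and 2379 to 2472 in Cgas-/- cells with vehicle. The TCA cycle sums overlapped, at 1969 to 2111 and 2058 to 2112. The same libraries differed in cell state and composition markers. The 17 microglial markers summed to 11682 to 11955 normalised CPM in Cgas+/+ and 8378 to 8499 in Cgas-/- cells (1 higher and 13 lower of 16 tested), 11 proliferation genes to 423 to 456 and 297 to 317 (1 higher, 8 lower), 9 fibroblast and endothelial genes to 108 to 127 and 27.7 to 32.7 (5 lower of 5 tested, with Col3a1, Lum and Cldn5 at 0 in every Cgas-/- vehicle library) and 16 interferon-response genes to 2385 to 5101 and 108 to 139 (16 lower). The cytosolic ribosomal sums were 28880 to 32488 and 35922 to 38630. Their part in the difference was not tested. Transcript length moved with the result as well. Among members with under 1000 bp of exon 14 of 20 were higher (70%), against 16.8% of all 853 such genes, and among longer members 25 of 60 (41.7%), against 25.2%.

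**Figure D4:**
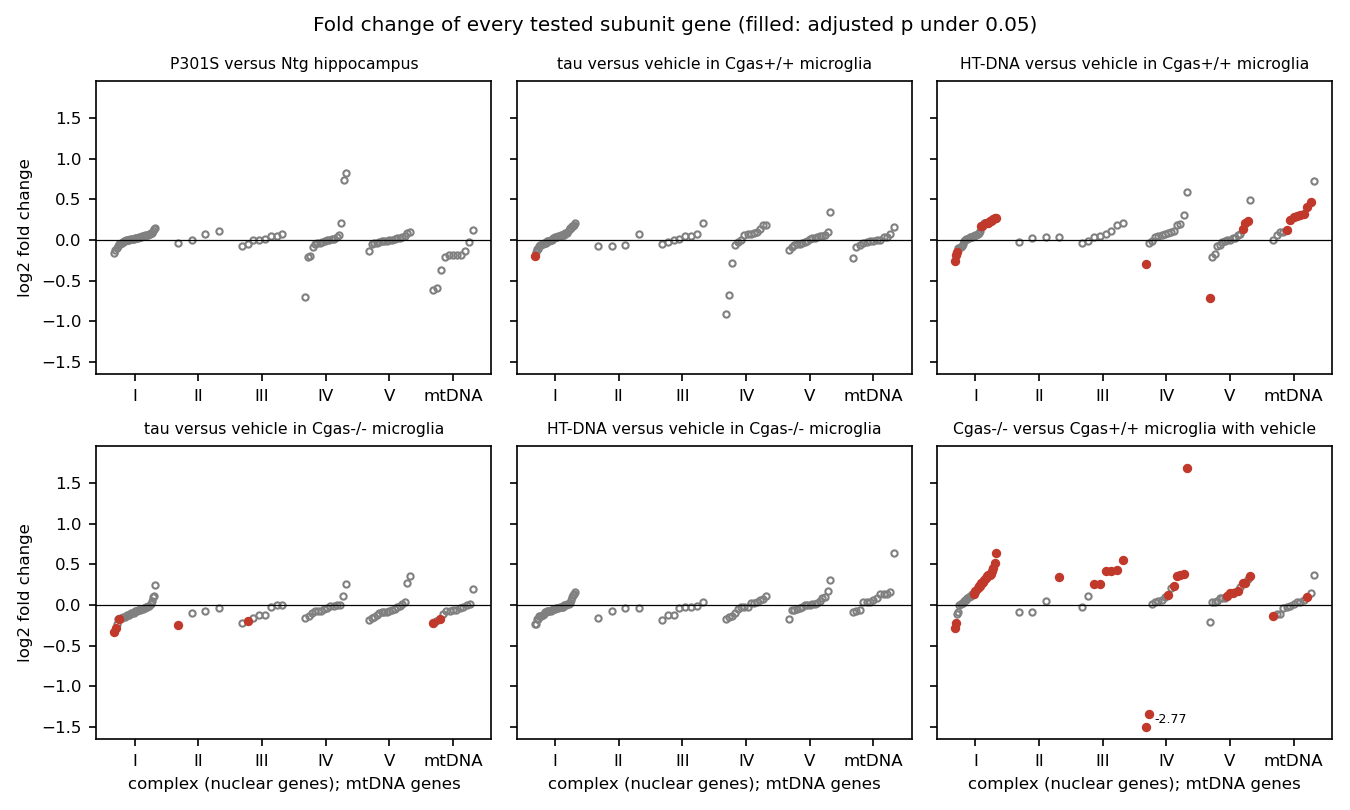
Log2 fold changes of the members in 6 comparisons, by complex for the nuclear members and in a column of their own for those of mitochondrial DNA (mtDNA), with 1 point per gene, red points for adjusted p under 0.05 and Cox8b (-2.77) drawn at the edge of its panel. Most red points are in the comparison of Cgas-/- with Cgas+/+ cells (43 of the 80 nuclear members), and the hippocampal panel has none.

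Tau fibrils left nearly all of the members of Cgas+/+ microglia without a call. None of the 80 nuclear members was called higher and 1 was called lower, against 15.8% and 12.2% of all genes, and none of the 13 mitochondrially encoded genes was called. At an unadjusted p under 0.05 there were 5 nuclear and 0 mitochondrially encoded genes by edgeR, and DESeq2 called 0 of either. The one call was Ndufb5, an accessory membrane subunit of complex I, with 34.6 to 36.4 normalised CPM over the 3 vehicle libraries and 29.3 to 33.4 with tau (-0.20, SE 0.07, adjusted p = 0.0468). It was no longer called when any of the vehicle libraries, or tau replicate 1 or 3, was left out, and without Cgas+/+ vehicle replicate 3 there were 8 calls. With library totals in place of TMM, which moved the median of all genes from -0.01 to -0.10, 13 nuclear members and mt-Co1 and mt-Nd4 were called lower. The median log2 fold change was 0.03 over the nuclear and -0.01 over the mitochondrially encoded members. Atp5b had 605, 591 and 599 with vehicle and 613, 605 and 612 with tau (0.03, adjusted p = 0.606), and mt-Nd1 had 1219, 1155 and 1358 and 1164, 1290 and 1212. In the same comparison the 16 interferon-response genes summed to 11004 to 13884 with tau and 2385 to 5101 with vehicle. AA467197, the mouse counterpart of NMES1 and a relative of Ndufa4, went from 68.6, 47.3 and 52.5 to 178, 162 and 180 (1.62 on the log2 scale). Acod1, the itaconate-producing enzyme that draws on the TCA cycle, rose by 3.05.

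In Cgas-/- microglia tau was followed by few calls among the nuclear members. Of the 80, 5 were called lower and none higher, against 5.48% and 11.2% of all genes, so that the share called lower was near that over all genes, and the count ran from 2 to 15 when single libraries were left out. Of the nuclear members 68 of the 80 were below 0 with a median of -0.08 (all genes 0.006). Ndufs4 fell from 40.9, 40.6 and 38.4 normalised CPM to 34.7, 29.7 and 31.2 (-0.33, SE 0.07, adjusted p = 0.000767). Sdhd fell from 102.5, 101.3 and 111 to 90.5, 83.7 and 90.9 (-0.25, SE 0.05, adjusted p = 0.000506). Neither gene overlapped between the groups, and both calls held when each library was left out in turn. Ndufa4 had 43.2, 34.6 and 36.8 against 34.5, 30.5 and 28.9 (-0.29, SE 0.08, adjusted p = 0.00886), a call that was lost without Cgas-/- vehicle replicate 1 (0.123) or tau replicate 3 (0.0727). Uqcrh, the hinge protein of complex III (-0.19, adjusted p = 0.0454), lost its call without any of the libraries but tau replicate 1. Ndufs8 (-0.17, adjusted p = 0.0491) lost its call without each single library, with DESeq2 (0.0568) and without the filter on low counts (0.0858). The count of nuclear members called was 15 without Cgas-/- tau replicate 1, 8 without vehicle replicate 3, 3 without vehicle replicate 2, and 2 without tau replicate 3 or vehicle replicate 1. With library totals it was 21, all lower.

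Of the mitochondrially encoded genes 2 were called lower and none higher with tau in Cgas-/- cells. mt-Cytb fell from 1639, 1540 and 1492 to 1430, 1243 and 1340 (-0.22, SE 0.05, adjusted p = 0.00242), without overlap and in every fit that left out 1 library. mt-Nd1 had 1218, 1134 and 1100 against 1113, 964 and 991, which overlapped (-0.17, SE 0.06, adjusted p = 0.0312), and it was no longer called without vehicle replicate 1 (0.199) or 2 (0.0531) or tau replicate 2 (0.183) or 3 (0.131). The interferon-response genes summed to 2167 to 2420 with tau and 108 to 139 with vehicle in these cells. AA467197 rose by 1.02 and Acod1 by 4.17 on the log2 scale, and hexokinase 2 (Hk2) by 0.28.

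The difference between the genotypes in their response to tau was tested as an interaction, in which negative values mean a lower response in Cgas-/- cells. Of the nuclear members 1 was called negative and none positive, against 3.31% and 3.61% of all genes, and none of the mitochondrially encoded genes was called (at an unadjusted p under 0.05 there was 1, mt-Cytb, which DESeq2 called). The one nuclear gene was Ndufs4, at -0.51 (SE 0.10, adjusted p = 0.00171). Its values with vehicle and tau were 26.7, 24.8 and 25.1 and then 28.4, 30.7 and 27.7 in Cgas+/+ cells, where the difference of 0.18 was not called, against the fall in Cgas-/- cells given above. mt-Cytb had -0.21 (adjusted p = 0.0794) and Ndufa4 -0.29 (0.115). Without Cgas+/+ vehicle replicate 3 there were 8 calls of nuclear members, without Cgas-/- tau replicate 1 there were 6, and without Cgas-/- vehicle replicate 3 there were 2. mt-Cytb was called without Cgas+/+ vehicle replicate 3, Cgas+/+ tau replicate 1 or Cgas-/- tau replicate 1.

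HT-DNA in Cgas+/+ microglia was followed by higher values of most mitochondrially encoded genes relative to the other genes of the cell. All 13 were above 0, and 8 were called higher and none lower, against 22.8% and 24.7% of all genes. The groups did not overlap for 9 of the 13, against 54.5% of all genes. mt-Nd4, a proton-pumping subunit of complex I, went from 877, 854 and 917 normalised CPM to 1131, 1106 and 1067 (0.32, SE 0.05, adjusted p = 2.3e-06). mt-Nd1 went from 1219, 1155 and 1358 to 1580, 1561 and 1463 (0.30, SE 0.06, adjusted p = 4.16e-05), mt-Nd2 from 681, 654 and 741 to 856, 866 and 826 (0.30, SE 0.05, adjusted p = 2.32e-05), and mt-Cytb from 1450, 1411 and 1600 to 1849, 1835 and 1741 (0.28, SE 0.05, adjusted p = 3.96e-05). Each of these 4 genes was higher in every HT-DNA library than in every vehicle library. mt-Co1 had 10373, 9961 and 9721 against 11360, 10804 and 10672 (0.13, SE 0.04, adjusted p = 0.00644). mt-Nd5 (0.06, adjusted p = 0.284) and mt-Nd6 (0.00, adjusted p = 0.952) were not called.

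Among the genes that share reads with nuclear copies, mt-Co2 had 15.2, 14.3 and 18.5 with vehicle and 20.6, 23.1 and 22.3 with HT-DNA (0.47, SE 0.10, adjusted p = 0.000223), and mt-Co3 14.5, 13.6 and 14.4 and then 18.6, 20.4 and 17.5 (0.41, SE 0.09, adjusted p = 0.000512). mt-Atp6 was called too (0.25, adjusted p = 0.0409), but not without vehicle replicate 1 or 2 or HT-DNA replicate 2 or 3. The nuclear copies moved the same way, with 4 of the 7 called higher, among them Gm28661 (0.46) and Gm28437 (0.41). The ribosomal RNAs of mitochondrial DNA, mt-Rnr1 and mt-Rnr2, were also called higher (0.49 and 0.39).

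These rises depended on the scaling. TMM lowered the effective size of the Cgas+/+ HT-DNA libraries (factors 0.890 to 0.900, against 1.03 to 1.05 with vehicle). With library totals in its place the median log2 fold change of all genes in this comparison moved from -0.03 to -0.24. The number of mitochondrially encoded genes called then fell to 3 (mt-Co2 higher, mt-Nd5 and mt-Nd6 lower), and mt-Co1 was at -0.09. As a share of all counts the 13 genes took 1.76% to 1.78% with vehicle and 1.66% to 1.78% with HT-DNA, so their share did not rise.

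**Figure D5:**
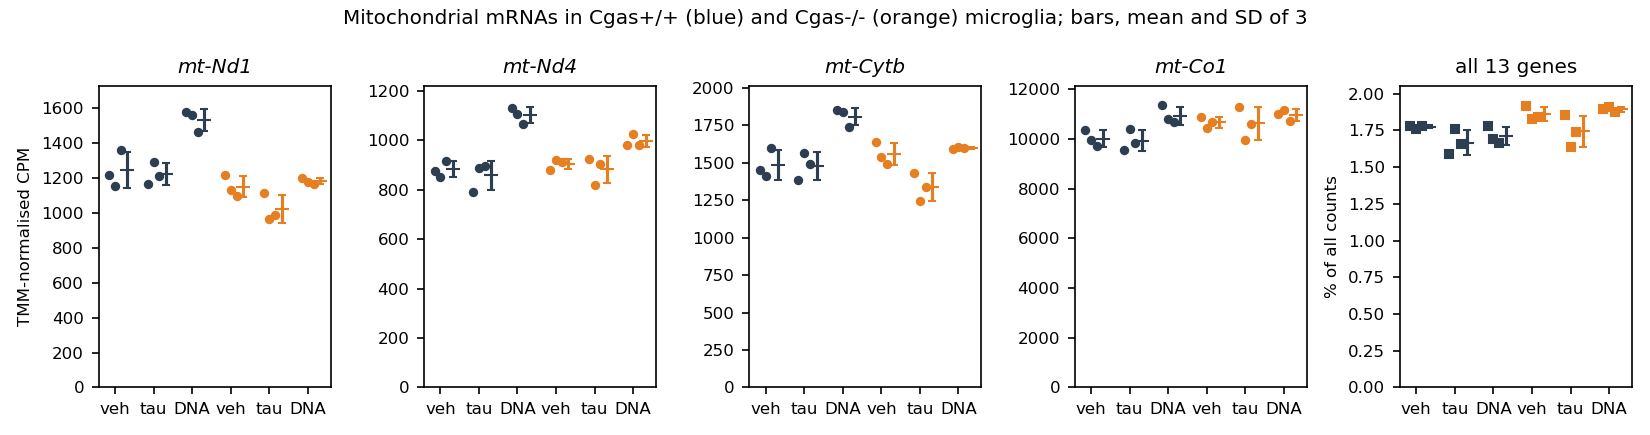
Normalised CPM of mt-Nd1, mt-Nd4, mt-Cytb and mt-Co1 in the 18 microglial libraries, and the share of all counts on the 13 mitochondrially encoded genes in percent (last panel), with 1 point per library and the mean with SD of 3. mt-Nd1, mt-Nd4 and mt-Cytb are higher in Cgas+/+ cells with HT-DNA than with vehicle, whereas the share of all counts is 1.66% to 1.78% against 1.76% to 1.78%.

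The nuclear members were mixed under HT-DNA in Cgas+/+ cells, with 13 of 80 called higher, 5 lower and a median of 0.05. Both are smaller shares than the 22.8% and 24.7% over all genes. Complex I had 10 higher and 3 lower of 37, complex V 3 and 1 of 17, complex IV 0 and 1 of 14, and complexes II and III had no call. Ndufs3, a core subunit, went from 47.0, 42.7 and 44.9 to 48.3, 58.4 and 55.7 (0.27, SE 0.07, adjusted p = 0.00106), and Atp5f1, of the stalk of the ATP synthase, from 126, 134 and 136 to 154, 156 and 155 (0.23, SE 0.05, adjusted p = 0.000139). Ndufs4 (0.27), Ndufa12 (0.25) and Ndufa5 (0.24) were the other large rises, and Ndufa5 lost its call without vehicle replicate 1 or 2 or HT-DNA replicate 2. Cox7a2l, a factor that joins complexes III and IV into supercomplexes, fell from 194, 185 and 185 to 156, 154 and 150 (-0.30, SE 0.05, adjusted p = 6.25e-06). Atp5s, a factor of the ATP synthase at low level, fell from 3.37, 4.41 and 4.26 to 3.04, 2.53 and 1.75 (-0.71, SE 0.20, adjusted p = 0.00336). Ndufa11 (-0.25), Ndufb5 (-0.19) and Ndufb8 (-0.15) were lower as well, each of them without a call in at least 1 fit that left out a library, Ndufa11 without HT-DNA replicate 3 and Ndufb5 without HT-DNA replicate 1.

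With library totals the nuclear picture changed side, to 0 higher and 40 lower, of which 5 were called under TMM as well, and the nuclear members took 0.601% to 0.644% of all counts with vehicle and 0.539% to 0.561% with HT-DNA. The count under TMM was 30 without Cgas+/+ vehicle replicate 3, 10 without vehicle replicate 2 and 11 without HT-DNA replicate 2. Under TMM the mitochondrial ribosomal proteins had 10 higher and 15 lower of 77, mitochondrial DNA expression 2 and 11 of 28, assembly factors 7 and 13 of 49, and glycolysis 10 and 5 of 29. AA467197 rose from 68.6, 47.3 and 52.5 to 228, 272 and 252 (2.16), cytochrome c (Cycs) from 54.5, 52.0 and 57.2 to 87.7, 98.3 and 95.4 (0.78), and lactate dehydrogenase A (Ldha) by 0.64 on the log2 scale. Fibroblast and endothelial markers summed to 382 to 391 with HT-DNA and 108 to 127 with vehicle, and interferon-response genes to 22342 to 24527 and 2385 to 5101. Their part in these values was not tested.

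In Cgas-/- microglia HT-DNA left the members without a call in either genome, against 1.04% of all genes higher and 0.278% lower. At an unadjusted p under 0.05 there were 9 nuclear and 4 mitochondrially encoded genes by edgeR, and DESeq2 called none. mt-Nd4 had 881, 922 and 912 with vehicle and 980, 1024 and 983 with HT-DNA (0.14, adjusted p = 0.19), and mt-Cytb had 1639, 1540 and 1492 and 1592, 1607 and 1598. mt-Nd3 (0.64, adjusted p = 0.0759), mt-Nd6 (0.14, 0.16) and mt-Nd2 (0.15, 0.168) were the other 3. Without Cgas-/- HT-DNA replicate 1, the library whose mitochondrial ribosomal RNA share of 0.157% lay above the 0.0867% and 0.0887% of the others of its group, mt-Nd3 was called, and without Cgas-/- vehicle replicate 3 Atp5o was called. AA467197 had 98.2, 102.5 and 98.5 and 115, 114 and 102 (0.15, adjusted p = 0.501).

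The response to HT-DNA differed between the genotypes for 5 mitochondrially encoded genes, all called negative, and for 10 nuclear members, 4 positive and 6 negative, against 17.4% positive and 16.6% negative of all genes. The mitochondrially encoded genes were mt-Co2 (-0.54, adjusted p = 0.00324), mt-Co3 (-0.47, 0.00612), mt-Nd1 (-0.26, 0.00929), mt-Cytb (-0.24, 0.00943) and mt-Nd4 (-0.18, 0.0378), the last of which was without a call when any of 7 single libraries was left out. Among the nuclear members Ndufs4 had -0.41 (adjusted p = 0.00204), Ndufs3 -0.35 (0.00395) and Atp5f1 -0.27 (0.00195). Atp5o, the subunit that joins the head and the stalk of the ATP synthase, had 0.52 (0.00613), with 39.4, 35.4 and 30.4 and then 31.0, 30.8 and 29.6 in Cgas+/+ cells, and 29.06, 25.78 and 35.96 and then 32.9, 41.2 and 38.3 in Cgas-/- cells. With library totals mt-Nd1 (-0.08), mt-Cytb (-0.06), mt-Nd4 (0.00) and mt-Co3 (-0.29) lost their calls, mt-Co2 kept its call, and the median of all genes moved to 0.22. The number of nuclear members called was 24 without Cgas+/+ vehicle replicate 3, 23 without Cgas-/- HT-DNA replicate 1, 17 without Cgas-/- vehicle replicate 3, and 6 without Cgas-/- vehicle replicate 2 or Cgas+/+ HT-DNA replicate 2.

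Ndufs4 gave the same order of groups in every treatment, with each Cgas-/- group above the Cgas+/+ group of the same treatment at the mean. Its 9 Cgas+/+ libraries lay between 24.8 and 33.7 normalised CPM and its 9 Cgas-/- libraries between 29.7 and 40.9, and the groups with HT-DNA (29.3 to 33.7 against 34.6 to 39.5) did not overlap, while those with tau (27.7 to 30.7 against 29.7 to 34.7) did. Cox6a2 had 3.78 to 6.27 in Cgas+/+ and 20.1 to 21.4 in Cgas-/- cells with tau. In the hippocampus Ndufs4 had 56.0 ± 6.14 normalised CPM in Ntg (SD, n = 7) and 57.9 ± 5.15 in P301S mice (n = 6), which overlapped (log2 fold change 0.05, SE 0.08, edgeR adjusted p = 0.839).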

How the data were processed

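The authors deposited raw read counts per gene, without normalization, as 1 table of 13 hippocampal libraries and 1 of 18 microglial libraries. Per the labels, RNA was taken with a Zymo kit and libraries were made with a QuantSeq 3′ kit, whereas the study's methods name RNeasy columns for hippocampi. The submitters' processing notes name GRCm38, edgeR and limma. The aligner, the counting tool and the annotation are not given in the sources used here. All value columns were matched to samples by name (0 were left unmatched), and no pair of libraries agreed within sampling noise (chi-square per degree of freedom at least 2.27).

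Counts were analysed in R 4.3.3 with edgeR 4.0.16 (filterByExpr, TMM, quasi-likelihood F test, all groups of a table in 1 fit), with Benjamini-Hochberg adjustment over the 16453 and 13675 genes tested. The members and gene lists were chosen with earlier results of these data known. Named were the 13 mitochondrially encoded genes, a fixed set of 15 nuclear core subunits, and the largest changes of each comparison (at most 5 in each direction) among called members with separate groups and an average of 20 or more counts in the higher one. Levels per kilobase used exon lengths of GENCODE M21, since the tables hold none, although lengths from the table had been planned. Coordinates are GRCm38 and 1-based. Where alternatives were run, they were DESeq2 1.42.0, RLE scaling, library totals, scaling without mitochondrial reads, no filter, a minimum log2 fold change (0.5 in hippocampi, 1 in microglia), covariates (sex, neuronal markers), the replicate number as a block, only the groups compared, and each library left out. Library totals were added after the data were seen. In simulated hippocampal counts edgeR recovered 2 of 100 genes changed by 0.3 on the log2 scale and 71 of 100 changed by 1. For tau in Cgas+/+ cells it recovered 35 and 82 of 100. The changed genes were drawn at random from all genes tested, and small differences of such genes in hippocampi would mostly be missed. Recovery of the members themselves was not simulated. The values of a member that entered the fits and the counts are not reported here.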

Additional observations from a re-analysis of the deposited data

Results flagged for a closer look

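In 3 of the 60 groups of hippocampal values examined, 1 mouse lay far from the others of its group, a number that chance alone would give at about 1 in 20 groups. mt-Co2 was 1.17 normalised CPM in 1 P301S mouse, against 0.198 to 0.494 in the other 5. mt-Atp6 was 0.796 in 1 Ntg mouse, against 0.267 to 0.495 in the other 6. Both genes share nearly all of their reads with nuclear copies. Sdhd, a membrane anchor of complex II, was 73.2 in 1 P301S mouse, against 84.2 to 87.9 in the other 5.

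The response of members to a treatment differed between Cgas-/- and Cgas+/+ microglia in edgeR's interaction test (adjusted p under 0.05, difference of log2 fold changes given as Cgas-/- minus Cgas+/+). For tau this was Ndufs4 at -0.51. For HT-DNA, negative differences were found for mt-Co2 (-0.54), mt-Co3 (-0.47), Ndufs4 (-0.41), Ndufs6 (-0.40), Uqcr11 (-0.38), Ndufa13 (-0.37), Ndufs3 (-0.35), Atp5f1 (-0.27), mt-Nd1 (-0.26), mt-Cytb (-0.24) and mt-Nd4 (-0.18). Positive differences were found for Atp5s (0.80), Atp5o (0.52), Ndufa11 (0.37) and Atp5l (0.35). The scaling alters many of the HT-DNA differences, as described above for the comparison itself.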

How the results depend on the processing

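Counts of members called changed with several choices, and the cause of each change was not tested. In hippocampi the count stayed at 0 under every alternative run. With library totals without TMM the counts were 2 mitochondrially encoded and 13 nuclear genes for tau in Cgas+/+ cells, 3 and 40 for HT-DNA in Cgas+/+ cells, 21 nuclear for tau in Cgas-/- cells and 18 nuclear (all positive) for the HT-DNA interaction. DESeq2 gave 0 nuclear genes for tau in Cgas+/+ cells, 8 for tau in Cgas-/- cells, and 3 nuclear and 1 mitochondrially encoded for the tau interaction. RLE scaling gave 2 nuclear genes for the tau and 16 for the HT-DNA interaction. Without the filter the nuclear counts were 6 for tau in Cgas+/+ cells, 13 for tau and 2 for HT-DNA in Cgas-/- cells (with 2 mitochondrially encoded), 11 for the tau interaction (with 1) and 21 for the HT-DNA interaction. With only the groups compared they were 3 for tau in Cgas+/+ cells, 10 for tau and 1 for HT-DNA in Cgas-/- cells (with 1 mitochondrially encoded) and 23 for the HT-DNA interaction. A minimum fold change left 3 nuclear members between genotypes (Cox6a2, Cox7a1 and Cox8b) and 0 members elsewhere.

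With each library left out in turn the lowest and highest counts of nuclear members were 0 and 8 for tau in Cgas+/+ cells, 10 and 30 for HT-DNA in Cgas+/+ cells, 2 and 15 for tau in Cgas-/- cells, 0 and 1 for HT-DNA in Cgas-/- cells, 37 and 48 between genotypes, 1 and 8 for the tau interaction and 6 and 24 for the HT-DNA interaction. For mitochondrially encoded genes they were 7 and 8 for HT-DNA in Cgas+/+ cells, 1 and 2 for tau and 0 and 1 for HT-DNA in Cgas-/- cells, 0 and 2 between genotypes, 0 and 1 for the tau interaction and 4 and 6 for the HT-DNA interaction. The direction changed for mt-Nd6 in hippocampi (0.031 with library totals, 0.013 with sex as a covariate, and -0.415 to 0.128 with each mouse left out), for mt-Co1 with HT-DNA in Cgas+/+ cells (-0.086 with library totals) and for mt-Nd4 in the HT-DNA interaction (0.001 with library totals). Of the other single-gene values, 848 kept their direction and call and 114 lost the call.

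The replicate number as a block gave 0 nuclear calls for tau in Cgas+/+ cells, since Ndufb5 had an adjusted p of 0.0521, and mt-Atp6 with HT-DNA in Cgas+/+ cells (0.0511) and Ndufs8 with tau in Cgas-/- cells (0.0549) lost their calls. Correlations of same-numbered libraries were between -0.124 and 0.154 and did not pass the limit for pairing in every pair, so the numbers were not taken to pair the libraries. At 3 libraries a group, log2 fold changes near 0.3 were often missed in simulated counts of genes drawn at random. Some members were called at smaller changes between the genotypes. Values of the mitochondrially encoded genes with identical nuclear copies do not separate the 2 sources of reads.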

Other observations

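The ribosomal RNAs of mitochondrial DNA were both called in 2 comparisons. mt-Rnr1 and mt-Rnr2 were each 0.39 higher on the log2 scale in Cgas-/- than in Cgas+/+ cells with vehicle, where the 13 subunit genes had a median log2 fold change of 0.01, and 0.49 and 0.39 higher with HT-DNA in Cgas+/+ cells. As a share of all counts in Cgas+/+ cells they took 0.0569% to 0.0723% with vehicle and 0.0702% to 0.0780% with HT-DNA, which overlapped. With HT-DNA in Cgas-/- cells mt-Rnr1 was called as well (0.48), and mt-Rnr2 was not (0.39, edgeR adjusted p = 0.204). One Cgas-/- HT-DNA library held 0.157% of its counts on these ribosomal RNAs, against 0.0867% and 0.0887% in the other two of its group.

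Some genes that act beside the subunits were also called in microglia. Ucp2, a proton or metabolite carrier of the inner membrane, was 0.46 higher with HT-DNA in Cgas+/+ cells and 0.27 lower in Cgas-/- than in Cgas+/+ cells with vehicle. Atpif1, the inhibitor of the ATP synthase, was 0.20 lower and 0.35 higher in the same comparisons. The glucose transporter Slc2a1 was 0.30 higher with tau and 0.38 with HT-DNA in Cgas+/+ cells, and Hif1a 0.36 and 0.53.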
